A study of Mus musculus with 8 samples.

Results

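The 6 MHC class II genes Cd74, H2-Aa, H2-Ab1, H2-Eb1, H2-DMa and Ciita were followed through single long-term hematopoietic stem cells (LT-HSCs) of aged mouse bone marrow, as 6 named rows among the 18174 genes that had a row in any of the 8 deposited tables. All cells came from untreated wild-type male C57BL/6J mice aged 18 months. LT-HSCs were sorted as Lin-CD150+CD48-CD34-Kit+Sca1+ cells and split by surface Dlk1 into a Dlk1+ and a Dlk1- sort, with 4 libraries of each and no other genotype, age or treatment. The labels name no animals, so the libraries may be technical repeats and the p-values measure only the spread between libraries. Each library pooled 96 wells of mCEL-Seq2, a plate-based assay that counts the 3' ends of polyadenylated RNA by unique molecular identifiers (UMIs). Dlk1+ wells were read on barcodes 1 to 96 and Dlk1- wells on the 96 barcodes from 97 upward. Barcodes 17, 20 to 24 and 29 to 32 were left out, and a well was counted as a cell from 1000 transcripts upward. These filters left 541 cells, of which 220 were Dlk1+ and 321 were Dlk1-. The barcodes left out all lie in the Dlk1+ range, so each Dlk1+ library had 86 usable barcodes and each Dlk1- library 96. With them there were 245 Dlk1+ cells. A difference between the sorts cannot be told apart from one between the barcode ranges.

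MHC class II molecules are pairs of an alpha and a beta chain that carry peptides from the endosomal pathway to the surface, where CD4 T cells read them. H2-Aa and H2-Ab1 encode the alpha and the beta chain of I-A. H2-Eb1 encodes the beta chain of I-E, which C57BL/6 mice do not display because their haplotype lacks a working alpha chain gene. Cd74, the invariant chain, holds new class II pairs until they reach the endosome, and H2-DMa is a subunit of H2-DM, which exchanges its remnant for peptide. Ciita is the coactivator that is recruited to class II promoters by the factors bound at their X and Y boxes. The genes are best known from B cells, dendritic cells and macrophages, and mouse HSCs have also been described as carrying class II molecules.

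The chain genes lie together in the MHC on chromosome 17 of GRCm38, all protein-coding. H2-Ab1 spans 34257689 to 34269419 on the plus strand, H2-Aa 34282744 to 34287823 on the minus strand, and H2-Eb1 34305867 to 34316674 on the plus strand. H2-DMa lies on the same chromosome at 34119541 to 34139101 on the plus strand, and Ciita at 10480059 to 10528418 of chromosome 16. The minus-strand gene Gm20513 overlaps H2-Eb1, and Brd2 and 3 further annotated genes overlap H2-DMa. Whether the authors counted by strand is not given in the sources used here, so reads of overlapping genes could not be separated.

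Promoter windows of the RefSeq table (GRCm38.p6) were available for H2-Aa, H2-Eb1 and H2-DMa. The 150 bases before the annotated start are shown for the alpha chain gene and the beta chain gene that both held X-Y type letters. No relation between these letters and the RNA counts was tested. Each is written 5′ to 3′ on the gene's strand, with motif letters in capitals.
H2-Aa, chr17:34287824-34287973, minus strand: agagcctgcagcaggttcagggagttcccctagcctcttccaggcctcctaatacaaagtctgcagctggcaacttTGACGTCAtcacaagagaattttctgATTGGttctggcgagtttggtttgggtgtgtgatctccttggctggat
H2-Eb1, chr17:34305717-34305866, plus strand: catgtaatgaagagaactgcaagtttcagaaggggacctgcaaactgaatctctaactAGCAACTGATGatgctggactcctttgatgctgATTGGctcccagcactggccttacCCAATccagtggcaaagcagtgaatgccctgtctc

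The letters searched on both strands were ATTGG, the Y box core, TGACGTCA, the cyclic AMP element whose relatives form the X2 box, and an X1 box pattern. No match overlapped another. H2-Aa held ATTGG 48 bases and TGACGTCA 74 bases before the start. H2-Eb1 held ATTGG 59 bases before the start on the coding strand, the same letters on the opposite strand 35 bases before it, and the X1 pattern 92 bases before it. Of H2-DMa's 2 annotated windows, that at 34125268 to 34125567 held a lone ATTGG and that at 34122582 to 34122881 held none of the letters. Both windows lie inside the gene span given above, and neither covers its start at 34119541. Whether H2-DMa has the letters before another start was not searched. Among all 32851 promoter windows of 300 bases, 37.4% held ATTGG, 3.09% the X1 pattern and 1.79% TGACGTCA, and 2.05% held ATTGG together with either of the others. A match is a description of the letters only.

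The libraries differed in size. Dlk1+ replicates 1 and 4 held 86 and 81 cells, whereas Dlk1+ replicates 2 and 3 held 27 and 26 and Dlk1- replicate 2 held 36. The other 3 Dlk1- libraries held 94 to 96 cells. Transcripts per library ranged from 39073 in Dlk1+ replicate 3 to 517559 in Dlk1- replicate 1. Median UMIs per cell were 1296 in Dlk1+ replicate 3 and 3403 to 5521 in the other 7 libraries. Dlk1 transcripts were found in 34.6% to 81.5% of the cells of the Dlk1+ libraries and in 2.08% to 10.6% of those of the Dlk1- libraries. Among kept barcodes, 8 were kept in all 4 Dlk1+ libraries, 35 in all 4 Dlk1- libraries and 0 in both sorts, as the barcode ranges require. Because depth sets how often a rare transcript is seen, shares of cells are given both as counted and after a thinning of each cell to 1000 UMIs, computed as an expectation. No kept cell had fewer UMIs than that.

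Class II transcripts were widespread but sparse in these stem cells. At least 1 of the 6 genes was seen in 334 of 541 cells, with 984 UMIs in all, or 1.82 per cell. H2-Aa led with 396 UMIs in 168 cells, a share of 31.1% (Wilson 95% interval 27.3 to 35.1%, counting error only). H2-DMa followed with 166 UMIs in 137 cells (25.3%), H2-Ab1 with 206 UMIs in 116 cells (21.4%) and H2-Eb1 with 152 UMIs in 96 cells (17.7%). Cd74 was seen in only 39 cells (7.21%, interval 5.32 to 9.70%) and Ciita in 14 cells (2.59%, interval 1.55 to 4.30%). UMI counts of 3' ends do not grow with transcript length. Whether these genes were captured and mapped equally well was not tested, so an order of genes is an order of counted UMIs only.

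The order of counted levels put H2-Aa first. Averaged over the 8 libraries, H2-Aa had 152 ± 42.4 CPM (transcripts scaled to a common library total, SD, n = 8), H2-Ab1 86.3 ± 36.6 CPM, H2-Eb1 62.0 ± 22.8 CPM and H2-DMa 57.8 ± 16.8 CPM. H2-Eb1 and H2-DMa did not differ beyond their spread, and the ranges of H2-Aa, 96.4 to 230 CPM, and H2-Ab1, 52.5 to 166 CPM, overlapped. Cd74 averaged 15.8 ± 16.4 CPM and Ciita 3.99 ± 4.27 CPM, also within each other's spread. For every H2-Aa UMI there were 0.520 of H2-Ab1, 0.384 of H2-Eb1 and 0.124 of Cd74. The invariant chain was therefore counted less often than each of the 3 chain genes it accompanies. No table has a row for the I-E alpha chain gene H2-Ea or for its pseudogene name H2-Ea-ps.

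Barcodes that no well of a library used gave the background. Outside the 10 barcodes left out, 728 such barcodes held 16 class II UMIs, or 0.0220 per barcode against 1.82 per kept cell. Of these, 11 were H2-Aa, 4 H2-Ab1 and 1 H2-Eb1, and Cd74, H2-DMa and Ciita had none. The 728 barcodes held only 23663 UMIs in all, so the values per barcode also hold the difference in depth. Per 10000 UMIs they had 6.76 class II UMIs, more than the 3.78 of kept cells. Own-range wells with under 200 transcripts held 3 class II UMIs in 124 wells.

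Most stem cells with class II transcripts carried few of the genes at once. None of the 6 was seen in 207 cells (38.3%), 1 in 170 cells, 2 in 114 cells, 3 in 34 cells, 4 in 10 cells and 5 in 6 cells, and no cell had all 6. By library, 38.5% to 60.5% of Dlk1+ cells and 59.6% to 75.0% of Dlk1- cells had at least 1 of the genes as counted. At 1000 UMIs these shares were 24.9% ± 2.87 in Dlk1+ and 29.7% ± 1.89 in Dlk1- (SD, n = 4 each), and the libraries of the sorts overlapped.

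**Figure D1:**
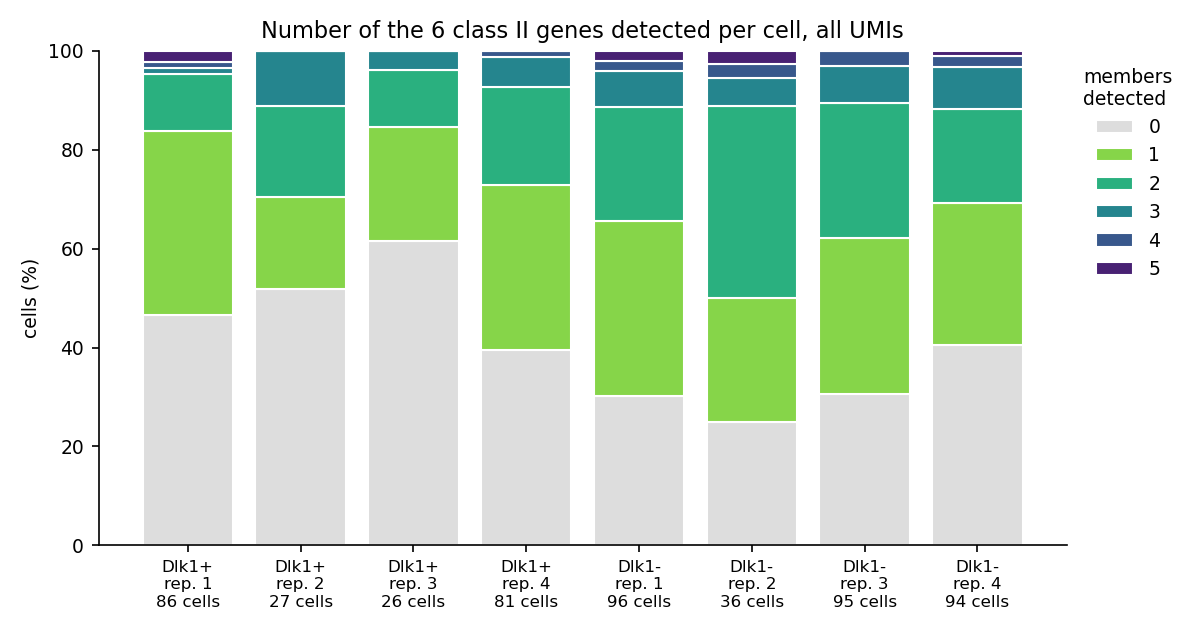
Number of the 6 class II genes detected per cell (all UMIs), as a percentage of the cells of each library; each bar is 1 library and each colour a number of genes. Bars of Dlk1- libraries show at most 40.4% of cells with none of the genes, and no bar reaches 6 genes; libraries differ in depth.

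Transcripts of the 3 chain genes were gathered in fewer cells than an even spread gives. If the UMIs of a gene fell on the cells of each library in proportion to their depth, H2-Aa's 396 UMIs would be seen in 264 cells, and they were seen in 168, a ratio of 0.636. The ratio was below 1 in all 8 libraries, from 0.535 to 0.856. Among the 3742 genes with at least 100 UMIs the median ratio was 0.953, and 27 genes had a lower ratio than H2-Aa. H2-Ab1 had a ratio of 0.706 (42 genes lower) and H2-Eb1 0.753 (68 genes lower). H2-DMa, at 166 UMIs, had a ratio of 1.00, higher than 3355 of the 3742 genes. Ratios of Cd74, 0.868, and Ciita, 0.957, rest on 49 and 15 UMIs.

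**Figure D2:**
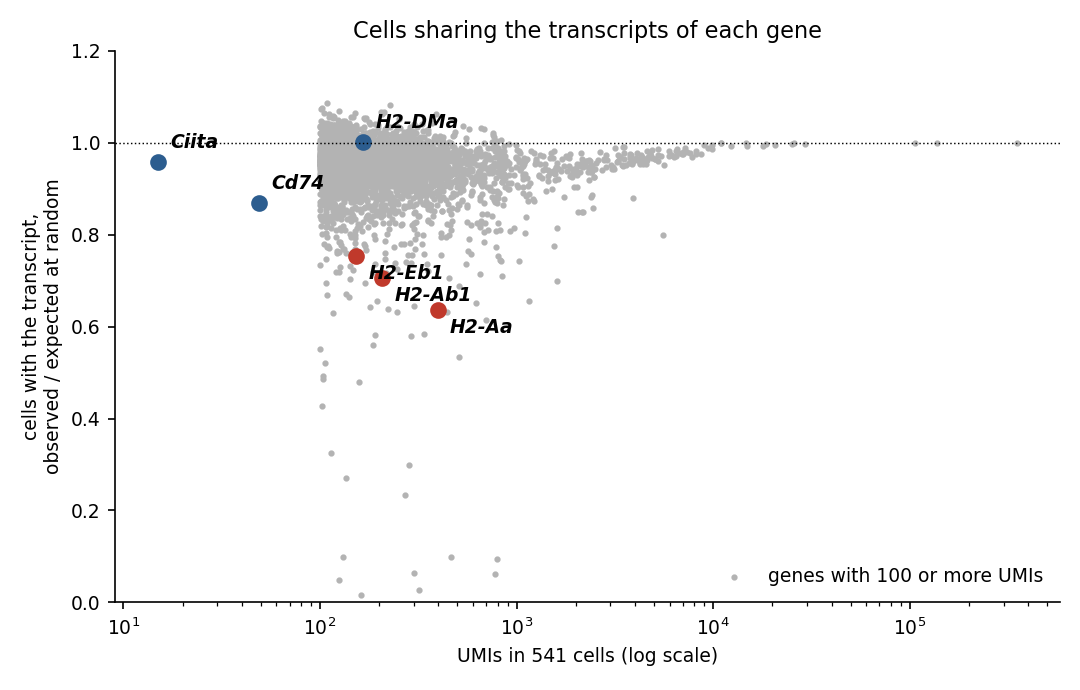
Cells in which a gene was detected divided by the number expected if its UMIs fell at random by cell depth, against the gene's UMIs (log axis). Grey points are the 3742 genes with 100 or more UMIs, red points H2-Aa, H2-Ab1 and H2-Eb1, blue points H2-DMa, Cd74 and Ciita; the chain genes lie at 0.636 to 0.753 and H2-DMa at 1.00.

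H2-Aa positive cells held 2.36 H2-Aa UMIs on average, and 51.8% of them held at least 2. The mean was 1.78 UMIs for H2-Ab1, 1.58 for H2-Eb1, 1.26 for Cd74, 1.21 for H2-DMa and 1.07 for Ciita. The 27 cells (5% of all) with most class II UMIs held 30.5% of them. In the highest cell, from Dlk1- replicate 1, 26 of 5977 UMIs were class II. These were 2 of Cd74, 5 of H2-Aa, 8 of H2-Ab1, 7 of H2-Eb1 and 4 of H2-DMa. The list of 14 HSC marker genes used for this work holds genes such as Hlf, Mecom and Procr. That cell had UMIs of 8 of the 14, without a record of which, and no UMI of a defining marker of antigen-presenting cells.

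The 3 chain genes were found in the same cells. Within each library, the share of cells with a second gene was compared between cells with and without the first, at 1000 UMIs. H2-Ab1 was seen in 19.3% ± 12.8 of cells with H2-Aa and in 6.09% ± 2.53 of cells without it (SD, n = 8 libraries). In the Dlk1+ libraries, in replicate order, 18.4%, 31.7%, 43.8% and 7.88% of cells with H2-Aa had H2-Ab1, against 5.16%, 12.3%, 4.49% and 5.32% of cells without it. In the Dlk1- libraries the values were 15.2%, 5.69%, 19.8% and 11.7% with H2-Aa, against 5.96%, 5.30%, 5.45% and 4.81% without. The share was higher with H2-Aa in all 8 libraries, by 0.387 points in Dlk1- replicate 2 and by 39.3 points in Dlk1+ replicate 3, where it rests on 26 cells. The mean difference was 13.2 points (two-sided exact sign-flip permutation test over 8 libraries, p = 0.00781, the smallest that 8 libraries allow).

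H2-Eb1 followed both chains of I-A. It was seen in 18.2% ± 5.86 of cells with H2-Ab1 and in 5.22% ± 2.00 of cells without it, higher in 8 of 8 libraries with a difference of 2.71 to 19.8 points (mean 13.0, exact sign-flip permutation p = 0.00781). The difference was smallest in Dlk1+ replicate 4 and largest in Dlk1- replicate 1. With H2-Aa as the first gene the shares were 12.9% ± 5.80 and 5.24% ± 1.76, again higher in 8 of 8 libraries (mean 7.61 points, exact sign-flip permutation p = 0.00781). Summed over libraries, H2-Aa and H2-Ab1 occurred together 2.36 times as often as the product of their shares gives, H2-Aa and H2-Eb1 2.06 times and H2-Ab1 and H2-Eb1 3.05 times. As counted, without thinning, H2-Aa and H2-Ab1 shared 54 cells, 32.1% of the H2-Aa cells and 46.6% of the H2-Ab1 cells. With cells thinned to 2000 UMIs, which leaves 4 cells in Dlk1+ replicate 3, the test no longer passed for H2-Aa with H2-Ab1 (10.3 points, exact sign-flip permutation p = 0.180) or for H2-Ab1 with H2-Eb1 (9.25 points, p = 0.422). Both passed at 0.05 once that library was left out, a setting chosen after seeing the data. For H2-Aa with H2-Ab1 the difference at 2000 UMIs was negative in Dlk1+ replicate 3 (-24.9 points) and in Dlk1- replicate 2 (-0.308 points). It was positive in all other libraries.

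H2-DMa, the peptide-loading subunit, passed none of these tests. Its share was higher with H2-Aa in 5 of 8 libraries (mean 1.01 points, exact sign-flip permutation p = 0.492), with H2-Ab1 in 6 of 8 (2.16 points, p = 0.242) and with H2-Eb1 in 4 of 8 (1.35 points, p = 0.461). By library the difference ran from -4.27 to 7.27 points for the pair with H2-Aa, so a smaller association was not detectable at this depth. Whether the H2-DMa pairs differ from the pairs of chain genes was not tested.

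**Figure D3:**
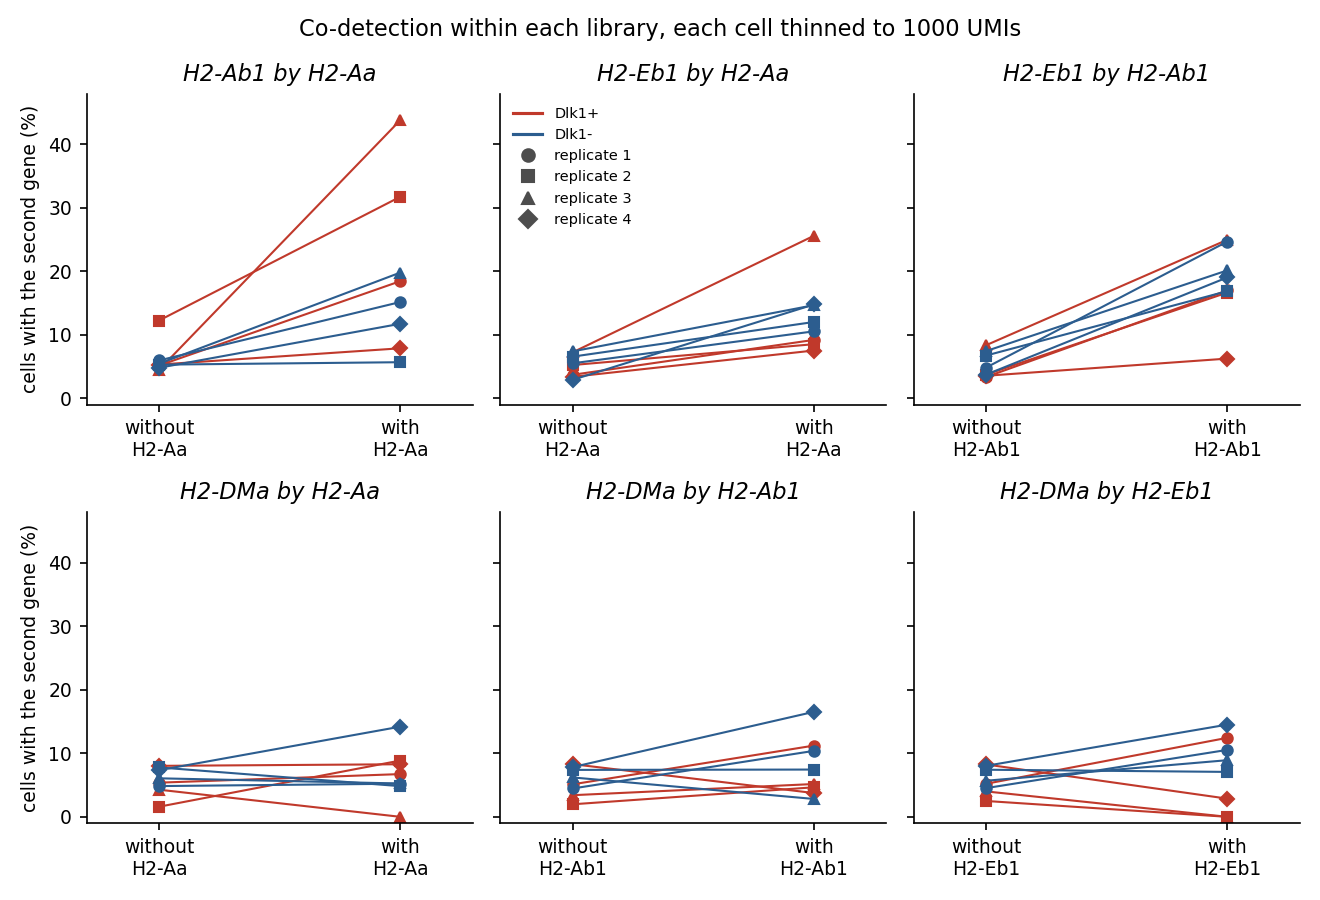
Share of cells (%) with the second gene among cells without (left) and with (right) the first gene, each cell thinned to 1000 UMIs; each line is 1 library, red Dlk1+ and blue Dlk1-. All 8 lines rise in the 3 panels of H2-Aa, H2-Ab1 and H2-Eb1, and lines of the H2-DMa panels go both ways.

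The same comparison was run for every gene seen in at least 5 cells of at least 6 libraries. Of 5062 genes, 0.909% were higher in cells with H2-Aa in all 8 libraries, 0.296% with H2-Ab1, 0.356% with H2-Eb1 and 0.731% with H2-DMa. Ranked by mean difference among these 5062 genes, H2-Ab1 was the first gene for H2-Aa and H2-Eb1 the 31st. For H2-Ab1 the first 2 genes were H2-Aa and H2-Eb1, with 19.0 and 13.0 points, and for H2-Eb1 they were H2-Ab1 and H2-Aa, with 16.6 and 14.7 points. H2-DMa ranked 1520 for H2-Aa, 721 for H2-Ab1 and 1244 for H2-Eb1. With 8 libraries and 5062 genes no p-value passed adjustment: the Benjamini-Hochberg adjusted p of the exact sign-flip permutation test was 0.538 for H2-Ab1 with H2-Aa, 0.542 for H2-Eb1 with H2-Ab1 and 0.538 for H2-Eb1 with H2-Aa.

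**Figure D4:**
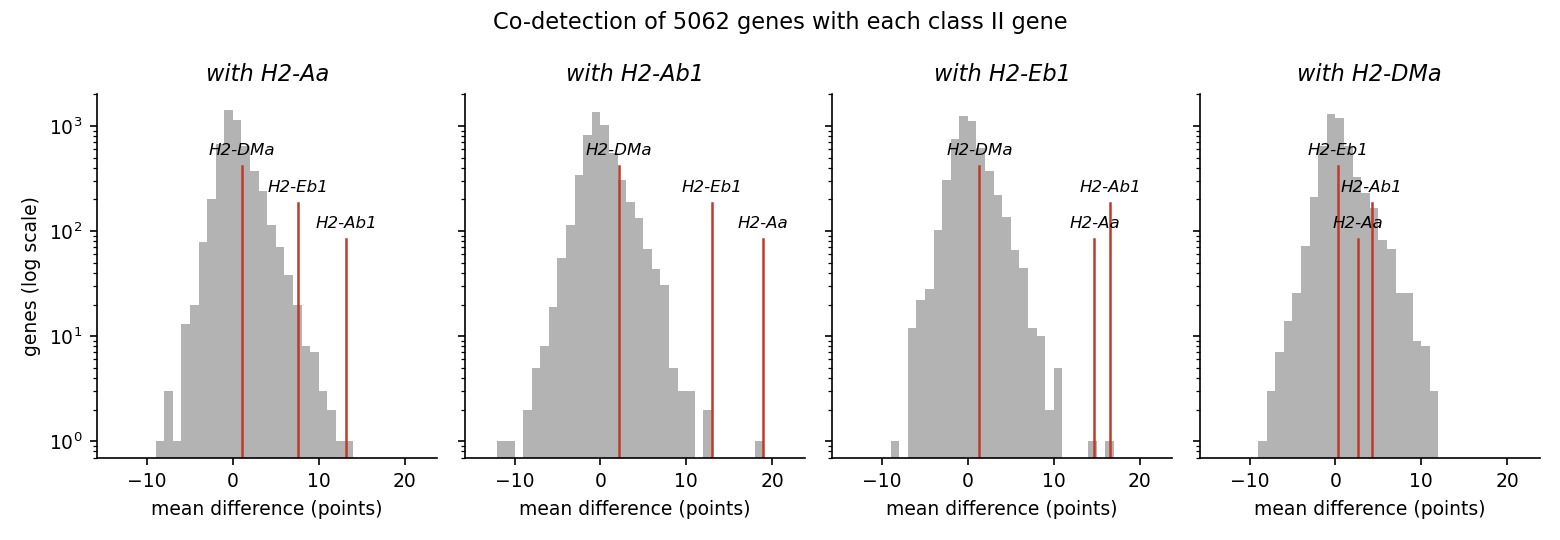
Mean difference over 8 libraries, in percentage points, of the share of cells with a gene between cells with and without the class II gene named above each panel; grey bars count 5062 genes (log axis) and red lines mark the other class II genes. H2-Aa, H2-Ab1 and H2-Eb1 mark the right end of each other's distributions except H2-Eb1 in the H2-Aa panel, at rank 31, and H2-DMa lies within the bulk.

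Cd74 was too rare for this test and is described by counts. Of the 39 cells with Cd74, 26 had H2-Aa (66.7%), 18 had H2-Eb1, 17 had H2-Ab1 and 12 had H2-DMa, and 32 (82.1%) had at least 1 of the 3 chain genes. In the other direction, 12.2% of the 262 cells with a chain gene had Cd74. At 1000 UMIs, H2-Aa was seen in 31.9% ± 9.15 of cells with Cd74 and in 12.1% ± 2.94 of cells without, and higher in each of the 6 libraries that had Cd74. Ciita shared 4 of its 14 cells with H2-Aa, 5 with H2-DMa and 1 with Cd74, too few to compare.

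Between the sorts, Cd74 was the class II gene whose libraries separated in the share of cells at 1000 UMIs. At 1000 UMIs the share of cells with Cd74 was 0.709%, 0%, 0% and 0.775% in Dlk1+ replicates 1 to 4, and 2.63%, 4.81%, 2.35% and 1.56% in Dlk1- replicates 1 to 4. All Dlk1+ libraries lay below all Dlk1- libraries, with means of 0.371% ± 0.429 and 2.84% ± 1.39 (SD, n = 4 each, two-sided exact permutation test, p = 0.0286, the smallest that 4 against 4 allows). Cd74 was the 1 gene of the 6 without overlap in this direction, and of the 10229 genes seen in at least 14 cells 2.94% had none. Adjusted over those 10229 genes, the permutation p of Cd74 was 0.670, so the difference did not pass. With libraries paired by replicate number, the exact sign-flip p of Cd74 was 0.125, the smallest that 4 differences allow. With at least 2 UMIs required per cell, H2-Eb1 was the gene that separated (-0.498 points, exact permutation p = 0.0286), as did 2.65% of the 10229 genes, and Cd74 did not (exact permutation p = 0.143).

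The counts behind Cd74 are small. The 4 Dlk1+ libraries held 3, 0, 0 and 3 Cd74 UMIs, and the 4 Dlk1- libraries 15, 11, 10 and 7. In CPM these are 7.58, 0, 0 and 6.57 against 28.99, 47.7, 21.03 and 14.7, or 3.54 ± 4.11 against 28.1 ± 14.3 (SD, n = 4 each, exact permutation p = 0.0286, adjusted over 10229 genes 0.744). In CPM, 2.31% of the 10229 genes had all Dlk1+ libraries below all Dlk1- libraries, and of the 6 class II genes Cd74 alone did. Dlk1+ replicates 2 and 3 were small: a count of 0 there allows up to 29.3 and 76.8 CPM, and a share of up to 11.1% and 11.5% of cells as counted, limits above the shares of 3 of the 4 Dlk1- libraries and below the 22.2% of Dlk1- replicate 2. Without the 3 libraries of under 40 cells the shares at 1000 UMIs were 0.709% and 0.775% against 1.56% to 2.63%, with no overlap. H2-Aa and H2-Eb1 did not overlap there either, nor did 11.4% of the 10229 genes in this direction, and 2 against 3 libraries cannot give a p below 0.2. Within plates the Dlk1+ and Dlk1- means were 0.354% and 3.72% on plate 5, and 0.387% and 1.96% on plate 6.

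**Figure D5:**
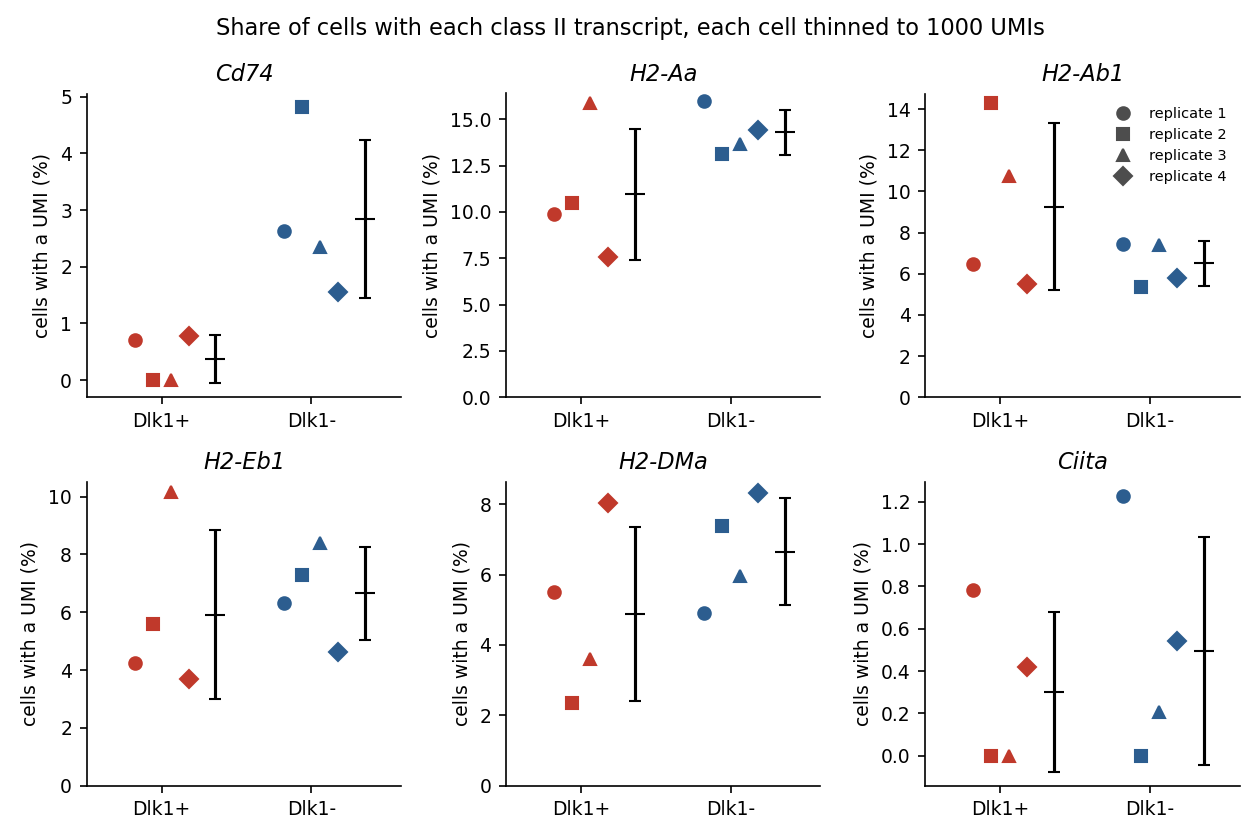
Share of cells (%) with at least 1 UMI of each class II gene, each cell thinned to 1000 UMIs; points are libraries (marker shape gives the replicate, red Dlk1+, blue Dlk1-) and black bars the mean ± SD of 4 libraries. Cd74 is the panel in which the sorts do not overlap, at 0 to 0.775% against 1.56 to 4.81%.

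H2-Aa was lower in 3 of the 4 Dlk1+ libraries than in any Dlk1- library at 1000 UMIs. The Dlk1+ shares were 9.87%, 10.5%, 15.9% and 7.55% and the Dlk1- shares 16.0%, 13.1%, 13.7% and 14.4%. The exception was Dlk1+ replicate 3, the shallowest library, where 9 H2-Aa UMIs were counted in 26 cells. The means were 10.9% ± 3.52 and 14.3% ± 1.23, and the difference did not pass the test (exact permutation p = 0.114, adjusted over 10229 genes 0.741). As counted, with no thinning, the shares were 22.1%, 29.6%, 19.2% and 20.99% against 41.7%, 36.1%, 35.8% and 34.0%, without overlap (exact permutation p = 0.0286). As counted, 5.04% of the 10229 genes did not overlap in this direction, and of the 6 class II genes H2-Aa and Cd74 did not. Median UMIs per cell were 1296 to 4862 in the Dlk1+ and 4595 to 5521 in the Dlk1- libraries, so unthinned shares also hold the difference in depth.

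For H2-Ab1, the partner chain, the libraries of the sorts overlapped. At 1000 UMIs the Dlk1+ shares of 6.47%, 14.3%, 10.7% and 5.51% stood against Dlk1- shares of 7.43%, 5.35%, 7.41% and 5.81% (exact permutation p = 0.314). The 2 high values came from the small Dlk1+ replicates 2 and 3, and without the 3 small libraries the means were 5.99% and 6.88%. H2-Eb1 had 4.24%, 5.59%, 10.1% and 3.70% against 6.32%, 7.28%, 8.38% and 4.62% (exact permutation p = 0.686). H2-DMa ranged from 2.35% to 8.04% in Dlk1+ and from 4.90% to 8.33% in Dlk1- libraries (exact permutation p = 0.286). Ciita ranged from 0 to 0.784% and from 0 to 1.23% (exact permutation p = 0.629).

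In the fit across all genes (limma-voom, 5666 genes), 4 of the 6 class II genes passed the filter on low values and none of them passed a false discovery rate of 0.05, against 0.0353% of all genes tested. The log2 fold changes, Dlk1+ over Dlk1-, were -0.43 (SE 0.27) for H2-Aa, -0.42 (SE 0.36) for H2-Eb1, -0.29 (SE 0.29) for H2-DMa and -0.07 (SE 0.33) for H2-Ab1, with limma adjusted p-values of 0.810 to 0.984. Without Dlk1+ replicate 4 the value was -0.14 for H2-Aa and -0.0097 for H2-Eb1, and without Dlk1- replicate 4 it was -0.72 for H2-Eb1. The median of the 4 was -0.36 and that of all genes tested -0.04. For H2-Ab1 the fitted value and the difference of the mean CPM, 96.0 ± 51.3 against 76.7 ± 15.7, differ in sign, and the fitted sign turned with limma-trend (0.174). Cd74 and Ciita were below the filter. In a fit without the filter Cd74 had a limma-voom p of 0.00348, which was 0.500 after adjustment over 17884 genes.

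Co-detection was compared between the sorts too. For the 6 pairs of H2-Aa, H2-Ab1, H2-Eb1 and H2-DMa the p-values of a two-sided exact permutation test over 4 against 4 libraries ran from 0.200 to 0.943. The gain of H2-Ab1 with H2-Aa was 18.7 ± 15.4 points in Dlk1+ and 7.72 ± 5.79 points in Dlk1- libraries (exact permutation p = 0.257). For Cd74 the values are a description, because Dlk1+ replicates 2 and 3 held no Cd74 UMI. It was seen in 1.73% and 3.09% of cells with H2-Aa in Dlk1+ replicates 1 and 4, against 0.597% and 0.586% of cells without. In the Dlk1- libraries it was seen in 4.27% to 6.91% of cells with H2-Aa and in 1.11% to 4.49% of cells without.

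Dlk1 transcripts themselves varied among Dlk1+ cells. At 1000 UMIs at least 1 class II gene was seen in 25.2%, 27.1%, 20.3% and 23.6% of the Dlk1+ cells with a Dlk1 UMI, replicates 1 to 4, and in 16.5%, 17.7%, 33.2% and 20.6% of those without. These rest on 59, 22, 9 and 63 cells with a Dlk1 UMI and on 27, 5, 17 and 18 without. The share was higher with Dlk1 in 3 of 4 libraries and lower in replicate 3, and 4 libraries cannot give an exact sign-flip p below 0.125.

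Other genes of the pathway were read from lists of class II chains, regulators, peptide processing, interferon-gamma signalling and class I presentation. Of the other class II chains, H2-DMb1, the partner of H2-DMa, was seen in 72 cells (13.3%), H2-Oa in 27 and H2-Ob in 14. All 10 listed factors of class II promoters were present. Crebbp, a histone acetyltransferase, was seen in 45.3% of cells, Creb1 in 25.1%, Nfya of the Y box complex in 24.03% and Rfx5 of the X box complex in 13.9%. Ciita, at 2.59%, was seen in fewer cells than each of those 10 factors. The peptide-processing proteases Ctsb and Ctsd were found in 43.8% and 39.0% of cells, whereas Ctss, the cathepsin that trims the invariant chain in B cells and dendritic cells, was found in 6 cells.

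No gene of these lists was called between the sorts by limma-voom. Of the class II regulators, 8 were tested, 6 with a negative fold change (median -0.21), and Kat2b had the largest, -1.28 (SE 0.52, limma adjusted p = 0.694). Of 9 interferon-gamma genes 7 were positive (median 0.17). Of 9 class I genes 7 were negative (median -0.54), led by the nonclassical class I gene H2-T23 at -1.98 (SE 0.45, limma adjusted p = 0.362). Among all 5666 genes tested, 3125 were negative and 2541 positive. Whether a list differs from all genes was not tested. H2-D1, a classical class I heavy chain gene, was seen in 96.1% of cells at about 1647 CPM, and the class I light chain gene B2m at about 2205 CPM. H2-Aa, the highest of the 6 class II genes, was at 152 CPM.

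Markers of other cells were checked beside these results. All 14 HSC markers listed had transcripts, summing to 2457 to 3538 CPM in Dlk1+ and 2596 to 3413 CPM in Dlk1- libraries. The 10 genes taken as defining markers of B cells, dendritic cells and macrophages summed to 21 UMIs in 18 of 541 cells. Among them, the dendritic cell marker Itgax and the macrophage marker C1qa had no row, and the macrophage marker Adgre1 had 0 UMIs. Of the 14 cells with 10 or more class II UMIs, 2 (14.3%) had a UMI of such a marker. The share was 10 of 320 for cells with 1 to 9 class II UMIs and 6 of 207 (2.9%) for cells with none. Median UMIs per cell were 5808.5, 4817.5 and 3931, in that order. Each of the 14 cells had at least 6 HSC markers, and none had a Cd79b UMI. The whole B cell list held 0 to 28.5 CPM in Dlk1+ and 16.8 to 39.1 CPM in Dlk1- libraries, the dendritic cell list 51.2 to 269 and 191 to 278 CPM, of which Cst3, a gene also expressed widely, was the main part at 165 and 208 CPM, and the macrophage and monocyte list 0 to 17.5 and 0 to 8.68 CPM. Cd79b, a B cell receptor subunit, was seen in 48 cells, of which 32 had a class II UMI and 16 had none. The B cell list was seen in 43 of the 334 cells with a class II UMI and in 22 of the 207 without. For the dendritic cell list these were 216 and 110 cells, and for the macrophage and monocyte list 14 and 3. The part of these transcripts in the results was not tested. Without the cells that carry a defining marker, the difference of Cd74 between the sorts and the co-detection of the 3 chain genes had the same direction and the same exact p-values, 0.0286 and 0.00781.

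Genes whose level per cell was most like that of the 6 summed were ranked by the mean within-library Pearson correlation over 8 libraries, as a description with no test. The correlations were weak. The 8 highest of 5704 genes were C1ra (0.24), H2-D1 (0.24), Ifitm1 (0.24), Txnip (0.23), Cpne2 (0.23), B2m (0.22), Gm17541 (0.22) and Tpt1 (0.22), and the lowest were Rab33b (-0.17), Gm21750 (-0.16) and Ankrd49 (-0.15). Correlations share the cell's depth and library. H2-D1 and B2m are parts of class I molecules, and Ifitm1 is an interferon-induced gene. The other ranked genes of the class I list lay between rank 181 (Psmb9, 0.13) and rank 4329 (Tap2, -0.02). Those of the interferon-gamma list lay between rank 40 (Igtp, 0.18) and rank 2710 (Jak1, 0.02). For Cd74 alone, over 6 libraries, the highest were Glmp (0.21), Hk3 (0.20), Gpx4 (0.19), Dcaf10 (0.18) and Senp7 (0.18). Against the sum of the other 5, H2-Ab1 had a mean correlation of 0.40, H2-Eb1 0.35, H2-Aa 0.34, Cd74 0.31, H2-DMa 0.06 and Ciita 0.01.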

How the data were processed

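The authors deposited 1 table per library of transcript numbers per gene and barcode, and per the labels' protocols the libraries were made by a CEL-Seq2 protocol with reduced volumes. The submitters' processing notes name BWA 0.6.2-r126 and mm10, and further steps are not given in the sources used here. The deposited values are UMI counts after a correction for UMI collisions, which could be inverted to whole UMIs. Shares of cells used whole UMIs. CPM and the fit used the deposited values summed per library over cells.

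Cells were own-range barcodes without the 10 named, with at least 1000 transcripts. The share after thinning is the hypergeometric expectation at 1000 UMIs, with no random draw. Shares and co-detection were compared by two-sided exact permutation and sign-flip tests over libraries. Adjusted p-values are over all genes, and none over the 6 genes alone is given. Library sums were fitted with limma 3.58.1 (voom, own TMM factors, rounded sums) in R 4.3.3. Genes were tested if their CPM reached, in 4 libraries, what 10 counts give in a library of median size, with at least 15 counts in all. The script was tested on simulated data. Count models were not used.

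The members and lists were chosen with earlier results of these data known. Text names the 6 members, list genes and, by correlation, the 8 highest, 3 lowest and, for Cd74, 5 highest. Doublets were not called. Gene positions come from GENCODE release M21 and promoters from RefSeq.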

Additional observations from a re-analysis of the deposited data

Results flagged for a closer look

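Barcodes that no well of a library used, outside the 10 left out, held 16 class II UMIs over the 8 libraries. This is signal in data outside the cells compared. They came from 728 barcodes with 23663 UMIs, 8 in Dlk1+ and 8 in Dlk1- libraries, or 6.76 class II UMIs per 10000 against 3.78 in kept cells. The 10 barcodes left out held 24 class II UMIs among 146305, or 1.64 per 10000. No library was flagged as far from the other 3 of its sort in the 30 groups of values examined. Single libraries did stand apart in other values. As counted, Cd74 was seen in 22.2% of cells in Dlk1- replicate 2 and in 7.45% to 9.47% in the other 3 Dlk1- libraries. With cells thinned to 2000 UMIs, H2-Eb1 was seen in 47.1% of the 4 cells of Dlk1+ replicate 3. The other 3 Dlk1+ libraries were at 6.88% to 11.4%.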

How the results depend on the processing

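Shares are differences in percentage points, Dlk1+ minus Dlk1-. For Cd74 the sign held in all 18 alternatives, and in 12 of them the exact test no longer passed 0.05. Leaving out 1 library gave -2.89 to -1.81. It could not turn the sign, because the sorts did not overlap, and 3 against 4 libraries cannot pass 0.05. Cells with at least 2 UMIs gave -0.142 for Cd74 (exact permutation p = 0.143) and -0.498 for H2-Eb1 (p = 0.0286). Without the 3 libraries of under 40 cells Cd74 was at -1.44. For H2-Aa no thinning gave -13.9 and a minimum of 500 transcripts with 500 UMIs -2.66 (exact permutation p = 0.0286 each), and at least 2 UMIs 0.0884. At least 1 gene gave -18.3 without thinning, -1.76 at 2000 UMIs and -1.46 for at least 2 UMIs. At least 2 genes gave -16.2 without thinning and 2.35 at 2000 UMIs, where Dlk1+ replicate 3 has 4 cells, and leaving out 1 library gave -1.69 to 0.344. Without that library at 2000 UMIs, an alternative chosen after seeing the data like that on small libraries, these were -10.7 and -4.16, and Cd74 was at -4.67. H2-Eb1 gave 6.23 at 2000 UMIs and -2.14 to 0.00861 with 1 library left out, Ciita 0.214 at 500 UMIs and -0.357 to 0.0529, and without the small libraries H2-Ab1 gave -0.892 and H2-DMa 0.383. Co-detection at 2000 UMIs fell to 10.3 points for H2-Aa and H2-Ab1 and 9.25 for H2-Ab1 and H2-Eb1 (exact sign-flip p = 0.180 and 0.422), and gave -0.661 for H2-Aa and H2-DMa and -1.39 for H2-Eb1 and H2-DMa. With Dlk1+ replicate 3 left out there, both chain pairs passed again at 0.05. Without the small libraries the 3 chain pairs gave 9.27, 6.76 and 12.8, all positive in 5 libraries, which cannot give p below 0.0625. Cd74 by H2-Aa between sorts gave -2.92, and -2.99 with the 10 barcodes, and is no test, since Dlk1+ libraries without Cd74 count as 0. The fit called 2 genes, Dlk1 and Timp3. It called 0 with limma-trend (259 at unadjusted p under 0.05), 4 with the 10 barcodes, 1 with 2000 transcripts and 1 to 19 with a library left out, 19 without Dlk1+ replicate 4. No class II gene was called in any of these. H2-Ab1's log2 fold change, -0.07, changed sign with limma-trend (0.174), 500 transcripts (0.0679) and 2000 transcripts (0.0241), and ranged from -0.26 to 0.41 with a library left out. With a replicate block 1 gene was called, H2-Ab1 was at 0.0739 and the Cd74 share at -2.47 (exact sign-flip p = 0.125, the smallest for 4 differences). In deviations from the mean of their sort, same-numbered libraries correlated at 0.04 to 0.08, and all pairs of unlike number at 0.000475 or less. A pairing by number is therefore possible, and the main tests between sorts do not use it. The log2 fold change of H2-Aa ranged from -0.58 to -0.14 and that of H2-Eb1 from -0.72 to -0.0097 with a library left out. The causes of these changes were not tested. Count models were not run.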
